A study of Mus musculus with 17 samples.

Results

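The syndecans and the glypicans are the families of heparan sulfate proteoglycans that sit in the cell membrane. The 8 genes described here are the syndecan genes Sdc1, Sdc2, Sdc3 and Sdc4 and the glypican genes Gpc1, Gpc3, Gpc4 and Gpc6. They were taken by symbol from the deposited gene count table, where each matched 1 of the 55421 gene rows, by a rule that names the genes and sets no threshold on a measured value. A total of 7 of the 8 genes were among the 10481 genes that passed the filter on low values (a CPM, the count scaled to the library total, above 10 in at least 2 libraries). Gpc6 did not pass it, and its tests come from a fit of all 35414 genes with at least 1 count.

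A syndecan crosses the membrane and has a short cytoplasmic tail that binds scaffold and kinase proteins, whereas a glypican is held on the outer face of the membrane by a glycosylphosphatidylinositol anchor. Both carry heparan sulfate chains, which are long sulfated sugars that bind growth factors, chemokines, Wnt and hedgehog proteins and matrix proteins and bring them to their receptors. In lung tissue, Sdc1 is best known from epithelium, and Sdc2 and Sdc4 from cells that adhere to fibronectin and other matrix proteins.

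Total RNA-Seq was measured in lung cells cultured as fibroblasts from 17 mice, 1 library per mouse. All mice were Ephb4f/f; Col1a2-CreERT2, so both alleles of Ephb4 were floxed and the tamoxifen-activated Cre was driven by the Col1a2 promoter, which limits the deletion to cells that use that promoter. At 4 weeks of age the Ephb4 CKO mice received 4-hydroxytamoxifen (1 mg per day for 5 days) and the Ephb4 control mice received corn oil. At 6 weeks of age the mice were given bleomycin (1.2 U/kg), a drug that injures the lung and leads to fibrosis, or PBS. Lungs were taken 14 days later, and the cells were grown in serum, passaged once and given no treatment in culture. The groups were Ephb4 control PBS (n = 4), Ephb4 control bleomycin (n = 4), Ephb4 CKO PBS (n = 5) and Ephb4 CKO bleomycin (n = 4).

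Library totals ran from 66540022 to 120554468 counts, with a median of 93075927. The labelled cell type was checked against marker genes. The summed level of 14 fibroblast markers ran from 16.3 to 13120 CPM over the 17 libraries, and that of 19 macrophage markers from 1452 to 47150 CPM. Fibroblast markers summed to 6488 to 13120 CPM in bleomycin-treated Ephb4 control mice but to 21.5 to 1879 CPM in bleomycin-treated Ephb4 CKO mice, 16.3 to 8871 CPM in PBS-treated Ephb4 control mice and 45.9 to 2505 CPM in PBS-treated Ephb4 CKO mice. No marker of either list was at 0 in all libraries. In bulk RNA, fewer cells of a type and less RNA per cell cannot be told apart. The sex-linked genes went against the recorded sex in 3 libraries, all from bleomycin-treated mice (mouse 2 of the Ephb4 control group, mice 1 and 2 of the Ephb4 CKO group). Some results without these libraries are given below. The targeted gene, Ephb4, was at 65.1, 13.1, 35.3 and 40.5 CPM in bleomycin-treated Ephb4 control mice and at 14.0, 9.53, 10.1 and 4.93 CPM in bleomycin-treated Ephb4 CKO mice. The ranges overlapped, and the fitted log2 fold change was -2.0 ± 0.79 (SE; edgeR adjusted p = 0.220). After PBS, Ephb4 was at 24.2, 4.00, 33.4 and 2.32 CPM in Ephb4 control mice and at 7.70, 23.6, 8.97, 4.01 and 4.05 CPM in Ephb4 CKO mice. These ranges overlapped too, with a log2 fold change of -0.73 ± 0.72 (edgeR adjusted p = 1.00, exact permutation p = 0.786), so the genotype difference of the targeted gene was not detectable after PBS in these counts. The paper itself reports lower Ephb4 mRNA by qPCR and lower protein by Western blot in lung fibroblasts of Ephb4 CKO mice.

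The 8 genes lie on 7 chromosomes of the GRCm38 build, as GENCODE release M21 places them by the gene IDs of the table. Gpc3 (chrX:52272426-52613950, minus strand) and Gpc4 (chrX:52053021-52165252, minus strand) are neighbours on the X chromosome, 107174 bp apart. The other genes are Sdc1 (chr12:8771323-8793715, plus strand), Sdc2 (chr15:32920723-33034935, plus strand), Sdc3 (chr4:130792537-130826319, plus strand), Sdc4 (chr2:164424247-164443887, minus strand), Gpc1 (chr1:92831645-92860779, plus strand) and Gpc6 (chr14:116925315-117976544, plus strand). Gpc6 spans 1051.2 kb of the genome, and Sdc4 spans 19.6 kb. Annotated genes on the opposite strand overlap Sdc3 (2 genes), Gpc1 (3), Gpc3 (2) and Gpc6 (1). The reads were aligned with their strand, so that reads of these partners can be told apart, but the counts come from estimated coverage.

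Gpc3 and Sdc3 stood at opposite ends of the pattern described below, and the 250 bases upstream of each annotated start (RefSeq, GRCm38.p6) are shown for that reason. Capitals mark the GC box, GGGCGG or its reverse complement CCGCCC. The sequences are written 5′ to 3′ on the strand of the gene, Sdc3 from chr4:130792287-130792536 (plus strand) and Gpc3 from chrX:52613975-52614224 (minus strand).
Sdc3: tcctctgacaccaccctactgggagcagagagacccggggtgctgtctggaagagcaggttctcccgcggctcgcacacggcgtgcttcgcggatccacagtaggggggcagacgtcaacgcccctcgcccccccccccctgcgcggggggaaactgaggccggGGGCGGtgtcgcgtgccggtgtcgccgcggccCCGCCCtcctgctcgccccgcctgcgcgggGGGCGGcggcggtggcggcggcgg
Gpc3: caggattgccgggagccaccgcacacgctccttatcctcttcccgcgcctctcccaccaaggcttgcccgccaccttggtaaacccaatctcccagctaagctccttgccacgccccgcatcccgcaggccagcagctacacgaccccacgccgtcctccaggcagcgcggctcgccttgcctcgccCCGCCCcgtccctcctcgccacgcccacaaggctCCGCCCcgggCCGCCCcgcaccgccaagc

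Both windows were rich in G and C (76.4% for Sdc3 and 71.6% for Gpc3, against a median of 52.0% over 27025 promoters) and in CpG dinucleotides (32 and 25, against a median of 6). Each held 3 GC boxes on either strand, a motif found in 32.9% of all promoters of that length. Neither window held the letters TATAAA (13.0% of promoters), GGAATG, the core bound by TEAD factors (12.6%), or GAGGAA, the core bound by PU.1 (23.1%), on either strand. A match is a description of letters and not of a bound site. RefSeq promoter entries were matched for 5 of the 8 genes, and the windows of Sdc1, Sdc4 and Gpc4 overlapped the annotated gene and are not shown.

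The members were first compared with each other within libraries, as CPM per kilobase of exon, which corrects for gene length. Sdc1 was the highest syndecan in 13 of the 17 libraries, Sdc3 in 2 and Sdc4 in 2. Gpc1 was the highest glypican in 17 of 17. In PBS-treated Ephb4 control mice the order of mean levels per length was Sdc1 (70.5 ± 30.8 CPM per kb, SD, n = 4), Sdc3 (33.7 ± 16.9), Sdc4 (31.5 ± 25.6), Gpc1 (6.00 ± 5.88), Sdc2 (4.06 ± 5.58), Gpc4 (1.30 ± 1.34), Gpc3 (1.25 ± 2.02) and Gpc6 (0.0331 ± 0.0335). The ranges of all neighbours in that order overlapped, so the order between adjacent genes is within the spread between mice.

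The make-up of the syndecans differed most in bleomycin-treated Ephb4 control mice. There Sdc2 supplied 6.82% to 20.5% of the summed syndecan level per length, against 0.0926% to 5.89% in PBS-treated Ephb4 control mice, 0.177% to 2.23% in PBS-treated Ephb4 CKO mice and 0.187% to 6.77% in bleomycin-treated Ephb4 CKO mice. The range of the first group lay above the other 3, by a narrow margin over bleomycin-treated Ephb4 CKO mouse 2. Gpc1 supplied 47.4% to 66.8% of the glypican level in bleomycin-treated Ephb4 control mice and 79.8% to 94.7% in bleomycin-treated Ephb4 CKO mice, and these ranges did not overlap. After PBS its share was 61.1% to 95.8% in Ephb4 control and 64.4% to 98.7% in Ephb4 CKO mice, and both ranges overlapped those after bleomycin. The 4 glypicans together made up 10.8% to 17.3% of the level of all 8 genes in bleomycin-treated Ephb4 control mice and 3.91% to 15.3% in bleomycin-treated Ephb4 CKO mice. After PBS they made up 2.11% to 9.52% in Ephb4 control and 3.58% to 11.6% in Ephb4 CKO mice. Only the range of PBS-treated Ephb4 control mice did not overlap that of bleomycin-treated Ephb4 control mice.

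**Figure D1:**
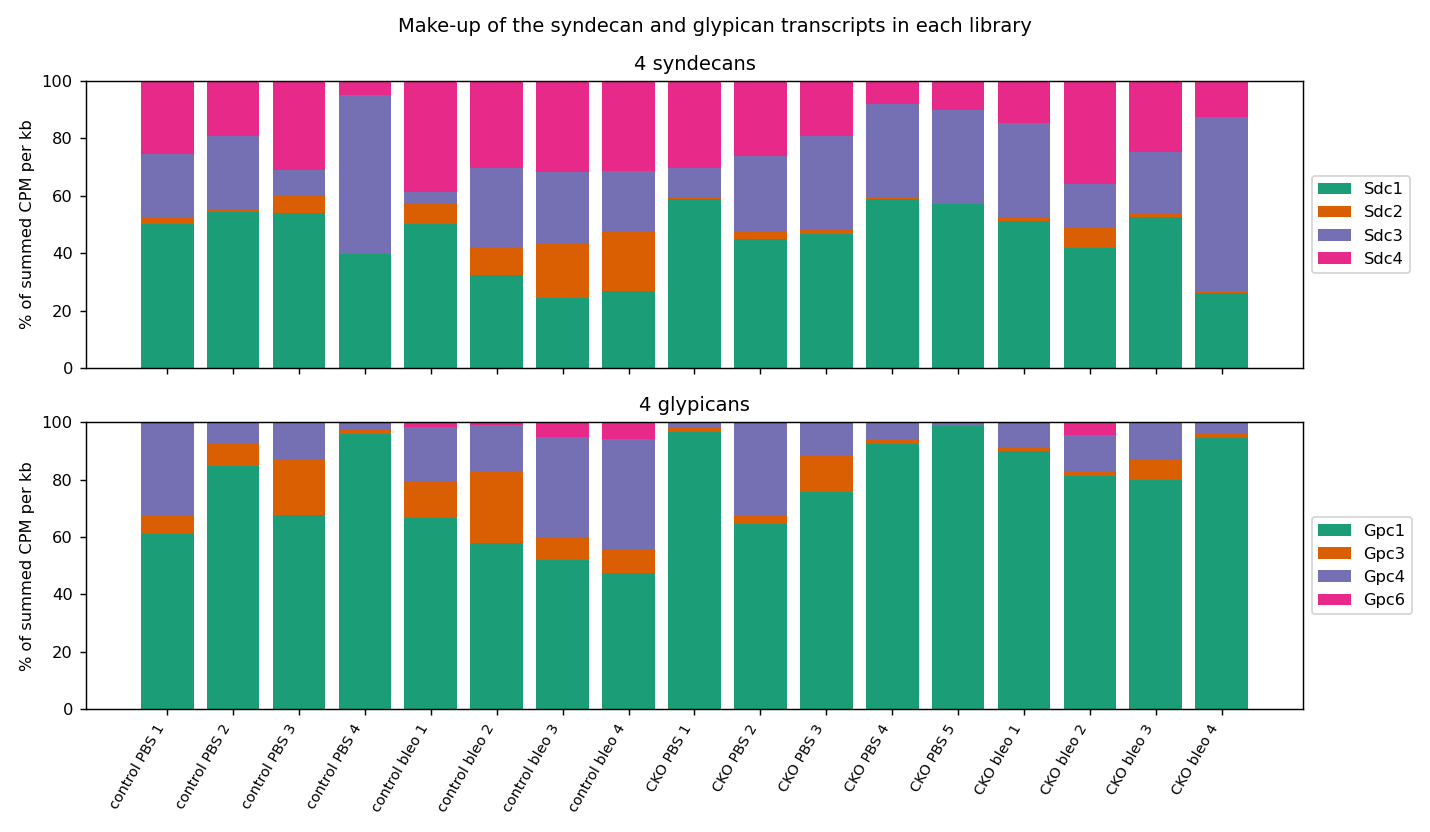
Share of each gene in the summed CPM per kilobase of the 4 syndecans (top) and the 4 glypicans (bottom), in percent, for each of the 17 libraries. Sdc1 takes the largest share of the syndecans in 13 libraries and Gpc1 of the glypicans in 17, and Sdc2 reaches 20.5% only in a bleomycin-treated Ephb4 control mouse.

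Among the syndecans, Sdc2, whose protein joins matrix adhesion and growth factor signaling in mesenchymal cells, had the widest range on the log2 scale, from 0.340 to 95.4 CPM over the 17 libraries. It was at 66.3, 52.2, 79.4 and 95.4 CPM in bleomycin-treated Ephb4 control mice. PBS-treated Ephb4 control mice had 11.8, 2.27, 42.9 and 0.340 CPM. All 4 bleomycin-treated mice stood above all 4 PBS-treated mice, of which mouse 3 was highest.

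In Ephb4 CKO mice, Sdc2 was at 3.28, 11.99, 8.43, 1.15 and 2.45 CPM after PBS. The bleomycin-treated Ephb4 CKO mice had 8.42, 34.3, 5.08 and 0.564 CPM. Mouse 2 of that group was the highest Ephb4 CKO library, and it too lay below every bleomycin-treated Ephb4 control mouse.

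Sdc1, whose shed ectodomain carries chemokines in injured epithelium, was the most abundant member and was above 85 CPM in every library, from 85.3 to 851 CPM, and 10 CPM was exceeded in 17 of 17. Its group means were 269 ± 117 CPM (SD, n = 4) and 241 ± 194 (n = 4) in Ephb4 control mice after PBS and bleomycin, and 427 ± 257 (n = 5) and 252 ± 124 (n = 4) in Ephb4 CKO mice. The 4 ranges overlapped.

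Sdc3, known mainly from neural tissue, ran from 67.6 to 769 CPM. It was at 67.6, 250, 181 and 168 CPM in bleomycin-treated Ephb4 control mice and at 353, 134, 221 and 313 CPM in bleomycin-treated Ephb4 CKO mice. These ranges overlapped, with 2 of 4 Ephb4 CKO mice above all 4 controls. After PBS the means were 202 ± 101 CPM (SD, n = 4) in Ephb4 control and 338 ± 253 (n = 5) in Ephb4 CKO mice.

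Sdc4, the syndecan that works with integrins at focal adhesions, ran from 12.8 to 272 CPM. Its means in Ephb4 control mice were 80.2 ± 65.2 CPM (SD, n = 4) after PBS and 148 ± 83.3 (n = 4) after bleomycin. In Ephb4 CKO mice they were 94.4 ± 51.7 (n = 5) and 83.6 ± 45.6 (n = 4). All groups overlapped, and bleomycin-treated Ephb4 control mouse 1, at 272 CPM, stood apart from the other 3 mice of its group (96.5 to 117 CPM).

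**Figure D2:**
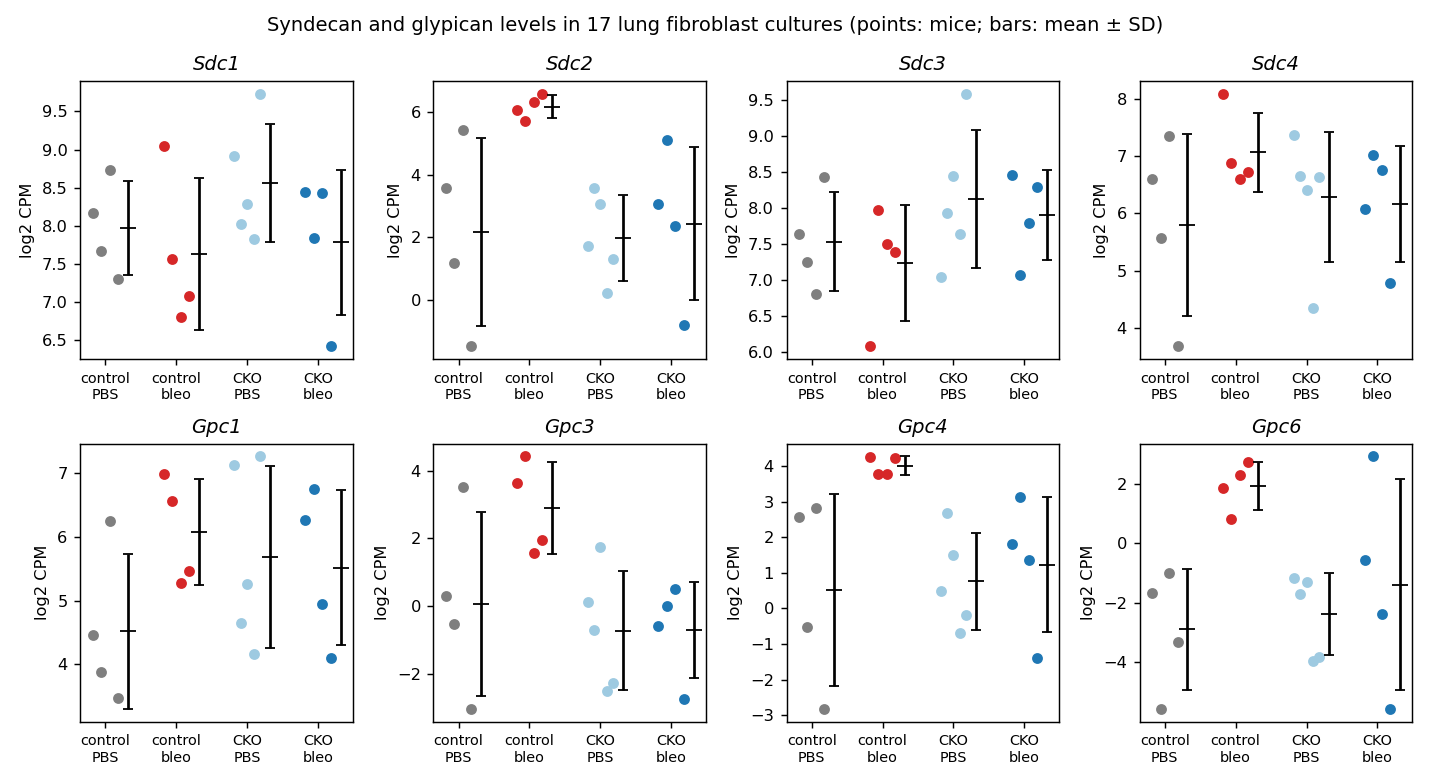
Log2 CPM (prior count of 2 over the library) of each of the 8 genes in the 17 libraries, with 1 point per mouse and the group mean ± SD to the right of the points. For Sdc2, Gpc4 and Gpc6 the 4 bleomycin-treated Ephb4 control mice lie above all PBS-treated Ephb4 control mice, and for Sdc2, Gpc3 and Gpc4 they lie above all bleomycin-treated Ephb4 CKO mice; each axis has its own range.

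Among the glypicans, Gpc3, a cell-surface regulator of hedgehog, Wnt and growth factor signaling, was at 12.4, 21.4, 2.95 and 3.87 CPM in bleomycin-treated Ephb4 control mice. The bleomycin-treated Ephb4 CKO mice had 0.648, 0.975, 1.40 and 0.129 CPM, from 11 to 114 counts per library. Every Ephb4 CKO mouse was below every control mouse, and within the control group mice 1 and 2, recorded as female, were above mice 3 and 4, recorded as male. Mouse 2 is one of the libraries whose sex-linked genes went against the record.

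After PBS, Gpc3 was at 1.21, 0.675, 11.5 and 0.1001 CPM in Ephb4 control mice. PBS-treated Ephb4 CKO mice had 1.06, 0.594, 3.33, 0.154 and 0.186 CPM. Mouse 3 was the highest of both groups, and only 3 of all 17 libraries exceeded 10 CPM.

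Gpc4, which controls growth factor and bone morphogenetic protein signaling, was at 18.9, 13.7, 13.5 and 18.6 CPM in bleomycin-treated Ephb4 control mice. PBS-treated Ephb4 control mice had 5.91, 0.675, 7.09 and 0.120 CPM. The bleomycin-treated mice formed a tight group above the PBS-treated mice.

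In Ephb4 CKO mice Gpc4 was at 1.38, 6.39, 2.83, 0.596 and 0.867 CPM after PBS and at 3.45, 8.71, 2.57 and 0.364 CPM after bleomycin. These groups overlapped, and the highest Ephb4 CKO library, bleomycin-treated mouse 2, was below the lowest bleomycin-treated Ephb4 control mouse. Gpc3 and Gpc4, although neighbours, were not ordered alike among the controls, since Gpc4 was as high in mouse 4 as in mouse 1.

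Gpc6, a glypican known for hedgehog signaling in growing bone, had the lowest mean level per length in 3 of the 4 groups, and Gpc3 had it in bleomycin-treated Ephb4 CKO mice. Gpc6 had 434, 197, 641 and 642 counts (3.59, 1.75, 4.83 and 6.61 CPM) in bleomycin-treated Ephb4 control mice. PBS-treated Ephb4 control mice had 22, 0, 46 and 8 counts, and the groups did not overlap. After bleomycin the Ephb4 CKO mice had 72, 799, 14 and 0 counts, so that mouse 2, at 7.49 CPM, was above every control and the other 3 were below.

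Gpc1, the glypican found in most adult tissues, ran from 11.1 to 154 CPM. It was at 127, 94.96, 38.9 and 44.2 CPM in bleomycin-treated Ephb4 control mice and at 22.02, 14.7, 76.0 and 11.1 CPM in PBS-treated Ephb4 control mice. Only PBS-treated mouse 3 overlapped the bleomycin-treated group. The Ephb4 CKO means were 75.0 ± 66.3 CPM (SD, n = 5) after PBS and 58.4 ± 42.2 (n = 4) after bleomycin, and all 4 groups overlapped.

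The first comparison asked what bleomycin changed in Ephb4 control mice. Sdc2, Gpc4 and Gpc6 were higher after bleomycin without overlap, but no member passed the test across all genes. The log2 fold change was 2.36 ± 1.21 (SE) for Sdc2 (edgeR adjusted p = 0.383), 2.23 ± 1.08 for Gpc4 (0.362), 1.59 ± 1.27 for Gpc3 (0.549) and 1.30 ± 0.81 for Gpc1 (0.450). Sdc4 had 0.88 ± 0.70, Sdc1 -0.16 ± 0.57 and Sdc3 -0.28 ± 0.53, with edgeR adjusted p from 0.546 to 0.911. In the fit without the filter Gpc6 had 4.36 ± 1.56 (unadjusted p = 0.0134, edgeR adjusted p = 0.544), where 8.89% of the 35414 genes had an unadjusted p under 0.05. The exact 2-sided permutation test gave p = 0.0286 for Sdc2, Gpc4 and Gpc6, which is the smallest value that 4 against 4 mice allow. Groups of that size without overlap always give this value, so it adds nothing to the absence of overlap. All 4 bleomycin-treated Ephb4 control mice had titles of number series 12 (the first digits of the number in the title), whereas 3 of the 4 PBS-treated mice were of series 11. The labels do not say what these digits stand for. With the series as a covariate the values were 1.19 ± 1.52 for Sdc2, 1.13 ± 1.16 for Gpc4, 0.75 ± 1.04 for Gpc1 and 0.38 ± 0.82 for Sdc4, with edgeR adjusted p from 0.799 to 0.899. Gpc3 moved the other way, from 1.59 to 2.12 ± 1.64 (edgeR adjusted p = 0.778).

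By edgeR, 0 of 10481 genes passed the adjusted threshold in this comparison (0.0%) and 14.3% had an unadjusted p under 0.05, against 0 of the 7 members tested. DESeq2 called 1.58% of genes and none of the 7 members, of which 2 (Sdc2 and Gpc4) had an unadjusted p under 0.05 against 17.9% of genes, and voom with sample quality weights called 0.439% of genes and no member. Groups that did not overlap and were higher after bleomycin made up 5.72% of the 10481 genes, which held Sdc2 and Gpc4, and 3.12% of the 35414 genes in which Gpc6 was counted. Gpc4 passed the filter only through the 4 bleomycin-treated Ephb4 control libraries. For that reason nothing is read from its place among the 5.72%, or among the 2 members with an unadjusted p under 0.05 by DESeq2. Gpc3 passed it through 3 libraries, mice 1 and 2 of that group and PBS-treated Ephb4 control mouse 3. Leaving out PBS-treated mouse 3 moved the Gpc3 value from 1.59 to 3.99, that of Sdc2 from 2.36 to 3.96 and that of Gpc1 from 1.30 to 2.30. Other single omissions lowered these values. Gpc3 was 0.93 without bleomycin-treated mouse 2, Sdc2 1.95 without PBS-treated mouse 4 and Gpc1 0.97 without bleomycin-treated mouse 1. The smallest edgeR adjusted p of these 3 genes with any 1 library left out was 0.105.

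The second comparison set Ephb4 CKO against Ephb4 control mice after bleomycin, in cells cultured from the injured lungs. The Ephb4 CKO mice had received 4-hydroxytamoxifen and the controls corn oil. An effect of the drug itself cannot be told apart from that of the deletion. The 3 members that were lower in Ephb4 CKO mice without overlap were Sdc2, Gpc3 and Gpc4. Gpc3 had a log2 fold change of -3.68 ± 1.38 (SE), which is 12.8-fold lower, with an unadjusted p of 0.0173 and an edgeR adjusted p of 0.218. Sdc2 had -2.60 ± 1.22 (6.07-fold lower, edgeR adjusted p = 0.247) and Gpc4 -2.10 ± 1.08 (4.28-fold lower, 0.268). These were the 3 with an exact permutation p of 0.0286, again the smallest possible. That value follows from the absence of overlap and is not a second result. The number series was uneven here too, since all 4 controls but only 2 of the 4 Ephb4 CKO mice were of series 12. With the series as a covariate, Gpc3 had -3.94 (edgeR adjusted p = 0.382) and Gpc4 -1.62 (0.445), and Sdc2 stayed below 0. In that fit 1335 of the 10481 genes had an unadjusted p under 0.05, against 2119 without the covariate.

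The remaining members showed smaller differences in this comparison. Sdc4 had -0.82 ± 0.70, Gpc1 -0.39 ± 0.80, Sdc1 0.07 ± 0.57 and Sdc3 0.62 ± 0.54 (edgeR adjusted p from 0.479 to 0.955). The 95% interval of the Sdc1 difference, -1.15 to 1.28 on the log2 scale, leaves room for more than a doubling in either direction. Gpc6 had -1.04 ± 1.37 in the fit without the filter (edgeR adjusted p = 0.795), and -3.93 when Ephb4 CKO bleomycin mouse 2 was also left out, an alternative chosen after seeing the data. Without the 3 libraries that went against the recorded sex, the values were -4.87 for Sdc2, -3.58 for Gpc4, -3.11 for Gpc3 and -1.59 for Gpc1, with edgeR adjusted p from 0.302 to 0.435.

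By edgeR 0.0% of genes passed the adjusted threshold here and 20.2% had an unadjusted p under 0.05, against 0 and 1 of the 7 members. DESeq2 called 3.81% of genes and 1 member, Gpc3 (log2 fold change -3.70, DESeq2 adjusted p = 0.0428). Voom with sample quality weights called 44.4% of genes and 4 members, namely Sdc2 (-3.37, limma adjusted p = 0.000723), Gpc4 (-2.29, 0.00543), Sdc1 (1.11, 0.0111) and Sdc3 (0.71, 0.0483). That fit weighted bleomycin-treated Ephb4 control mice 3 and 4 by 8.25 and 7.20, and no other library by more than 4.44. Non-overlapping lower groups made up 12.2% of the 10481 genes, which held Sdc2, Gpc3 and Gpc4. Since Gpc4 was among these genes only through the control group of this comparison, and Gpc3 through 2 of its mice and 1 PBS-treated mouse, nothing is read from their number. The same holds for the counts of called members above that hold Gpc3 or Gpc4.

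**Figure D3:**
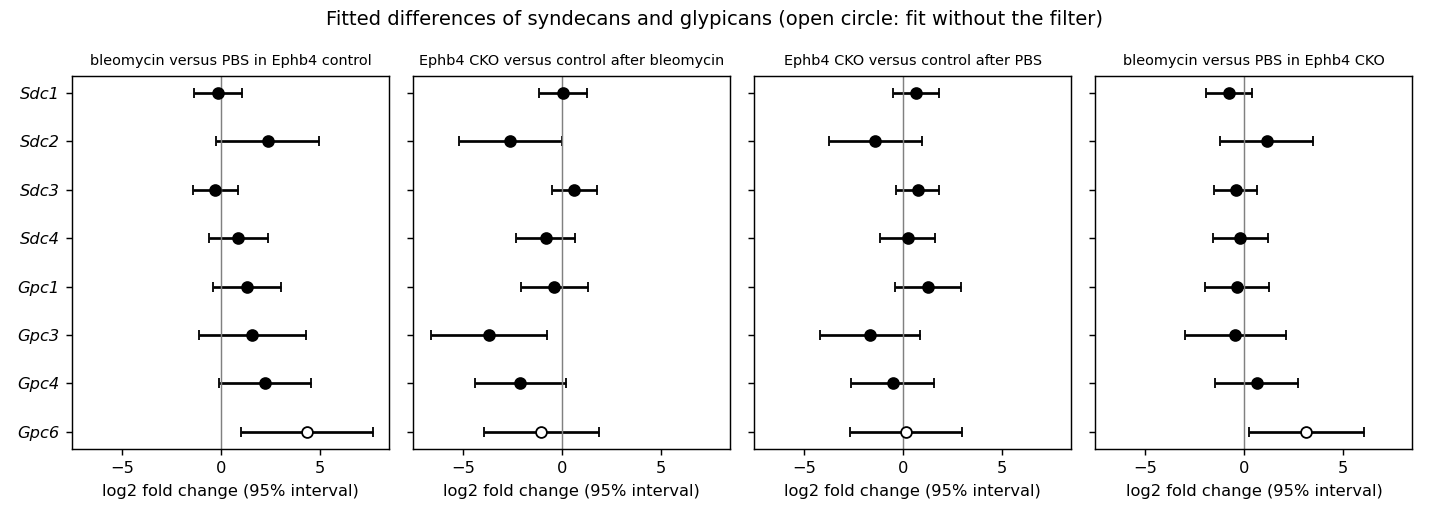
Fitted log2 fold change with its 95% interval for each gene in the 4 comparisons between groups (edgeR). The Gpc6 points are open because they come from the fit without the filter; Gpc3 at -3.68 after bleomycin is the largest difference of the 7 members that passed the filter.

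After PBS, Ephb4 CKO and Ephb4 control mice overlapped for all 8 genes, as they did for Ephb4 itself. The log2 fold changes ran from -1.66 (SE 1.183) for Gpc3 to 1.28 ± 0.78 for Gpc1, with Sdc2 at -1.39 ± 1.10 and Sdc3 at 0.74 ± 0.51. Groups that did not overlap made up 0.248% of the 10481 genes. No member passed the adjusted threshold by edgeR (0.0% of genes), DESeq2 (0.00954%) or voom (0.0%), none had an unadjusted p under 0.05 in any of these fits, and 1.99% of all genes had one by edgeR. The exact permutation p ran from 0.214 to 0.897, where 5 against 4 mice allow 0.00794. Without PBS-treated Ephb4 control mouse 3 the sign of 3 members changed, and their values were 0.70 for Gpc3, 0.21 for Sdc2 and 0.14 for Gpc4.

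In Ephb4 CKO mice, bleomycin and PBS groups also overlapped for all 8 genes, against 0.0859% of the 10481 genes without overlap. The values ran from -0.76 ± 0.55 (SE) for Sdc1 to 1.15 ± 1.09 for Sdc2 among the 7 members that passed the filter, and the edgeR adjusted p was 1.00 for each. Adjusted calls were 0.0% of genes by edgeR, 0.00954% by DESeq2 and 0.0% by voom, with none of the 7 members. None of them had an unadjusted p under 0.05 in these fits, against 0.964% of all genes by edgeR. Gpc6 had 3.15 ± 1.36 in the fit without the filter (unadjusted p = 0.0345, edgeR adjusted p = 1.00), where 2.07% of genes had an unadjusted p under 0.05. Without mouse 2 of the bleomycin group this value was 0.26. Sdc2 and Gpc4 also moved without that mouse, from 1.15 to -0.22 and from 0.65 to -0.18. Without both Ephb4 CKO libraries that went against the recorded sex they were -1.001 and -0.77, and Gpc1 went from -0.36 to -1.69 (SE 1.04).

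The interaction tested whether the change with bleomycin differed between the genotypes. All 7 members had a value below 0, from -2.03 ± 1.74 (SE) for Gpc3 to -0.13 ± 0.73 for Sdc3, with edgeR adjusted p from 0.916 to 0.988. Without the libraries that went against the recorded sex, the Gpc1 value went from -1.66 ± 1.11 to -2.88 ± 1.36 (edgeR adjusted p = 0.760). By edgeR, 0 of the 7 members and 3.46% of all genes had an unadjusted p under 0.05, and adjusted calls were 0.0% of genes by edgeR, DESeq2 and voom alike. The difference between genotypes in the response to bleomycin was thus not detectable for any member with these mice. The 3 comparisons that include bleomycin-treated Ephb4 control mice share those libraries, and the values of 1 gene in them are not independent.

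The levels of the members followed the fibroblast markers of a library to different degrees. The fibroblast marker score, the mean log2 CPM of the 13 markers that passed the filter, ran from -0.76 in PBS-treated Ephb4 control mouse 4 to 8.10 in bleomycin-treated Ephb4 control mouse 1. Between these libraries Sdc2 went from 0.340 to 66.3 CPM, Gpc3 from 0.1001 to 12.4 CPM and Gpc4 from 0.120 to 18.9 CPM. Sdc4 went from 12.8 to 272 CPM, Gpc1 from 11.1 to 127 CPM and Sdc1 from 158 to 528 CPM. Sdc3 went the other way, from 345 to 67.6 CPM, but was at 250 CPM in bleomycin-treated Ephb4 control mouse 2, whose score was 7.95. The library with the highest fibroblast score also had the lowest score of the macrophage markers (4.21), so its levels do not go with the fibroblast markers alone.

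With group in the fit, the slope on the score was 0.64 ± 0.13 (SE, log2 units per unit of score) for Gpc3, 0.63 ± 0.15 for Sdc2 and 0.46 ± 0.18 for Gpc4. Gpc1 had 0.37 ± 0.10, Sdc4 0.32 ± 0.10, Sdc1 0.20 ± 0.09 and Sdc3 -0.08 ± 0.09. The slopes are given as a description, since members and markers were measured in the same libraries.

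**Figure D4:**
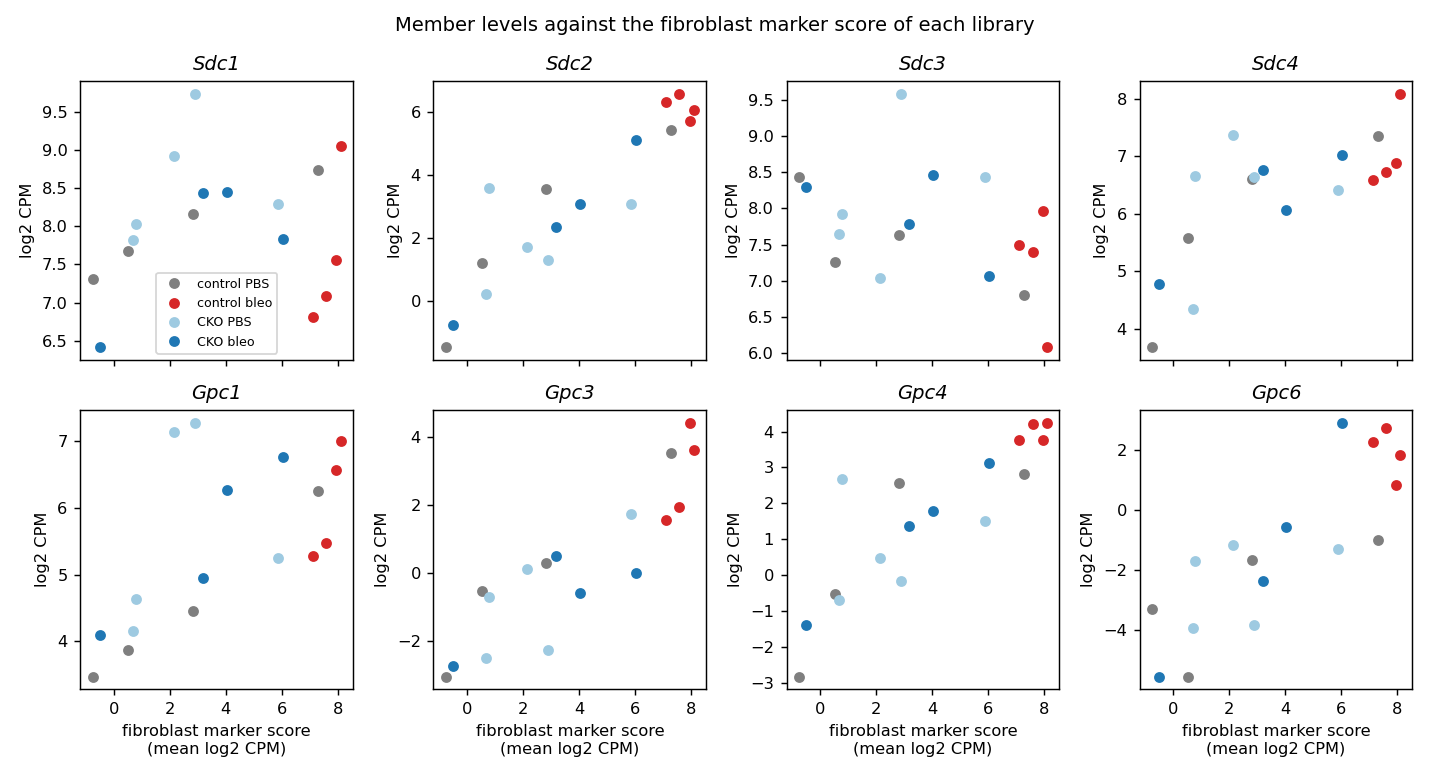
Log2 CPM of each gene against the fibroblast marker score (mean log2 CPM of 13 markers), 1 point per library, colored by group. Every gene but Sdc3 is higher in the library with the highest score (8.10) than in that with the lowest (-0.76). The lowest level of Sdc3 (67.6 CPM) is in the library with the highest score.

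Groups differed in that score as they did in these genes. It was 7.69 ± 0.44 (SD, n = 4) in bleomycin-treated Ephb4 control mice and 3.19 ± 2.73 (n = 4) in bleomycin-treated Ephb4 CKO mice, 2.47 ± 3.54 (n = 4) in PBS-treated Ephb4 control mice and 2.48 ± 2.11 (n = 5) in PBS-treated Ephb4 CKO mice. The macrophage marker score was 6.90 ± 1.80, 8.59 ± 0.32, 8.27 ± 0.77 and 8.58 ± 0.51 in the same order. Smooth muscle and pericyte markers (7 genes) summed to 2708 to 3904 CPM in bleomycin-treated Ephb4 control mice, 24.2 to 1871 CPM in bleomycin-treated Ephb4 CKO mice, 7.96 to 669 CPM in PBS-treated Ephb4 control mice and 36.6 to 491 CPM in PBS-treated Ephb4 CKO mice. The first group thus stood above the other 3 without overlap, as for Sdc2 and Gpc4, and the part of these markers in the results was not tested. Acta2, 1 of these markers, was at 1984 to 2468 CPM in the first group. The paper takes its protein as a marker of activated fibroblasts, so the sum does not mark smooth muscle or pericytes alone. With the fibroblast score as a covariate, the difference between Ephb4 CKO and control mice after bleomycin was -0.84 ± 1.01 for Gpc3, -0.84 ± 0.98 for Sdc2 and -0.63 ± 1.12 for Gpc4. With the macrophage score it was -2.79 ± 1.45 for Gpc3, -1.56 ± 1.21 for Sdc2 and -1.05 ± 1.09 for Gpc4. The share of each result that goes with cell make-up cannot be told apart from the group with these libraries.

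**Figure D5:**
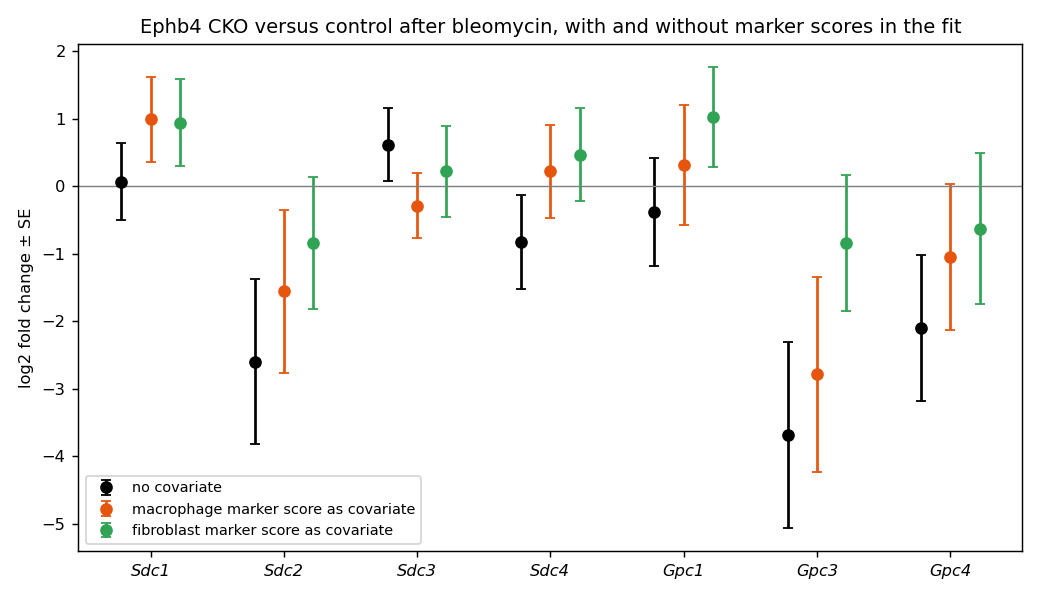
Log2 fold change ± SE of Ephb4 CKO versus control mice after bleomycin for 7 genes, from fits without a covariate (black), with the macrophage marker score (orange) and with the fibroblast marker score (green). Gpc3, Sdc2 and Gpc4 move from -3.68, -2.60 and -2.10 toward 0, Sdc4 and Gpc1 cross it with both scores, and Sdc3 goes from 0.62 to -0.29 with the macrophage score.

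For each member, the 3 genes with the most similar profile were found as those with the smallest mean absolute difference of log2 CPM over the 17 libraries, after centering each gene. For Sdc2 they were Dbn1 (0.37), Plod2 (0.38), which hydroxylates collagen lysines, and Arhgef25 (0.40), against a median of 2.08 over all genes. Gpc4 lay nearest to Cnn3 (0.30), Hspg2 (0.31), the heparan sulfate proteoglycan perlecan, and Fhl2 (0.33), with a median of 1.78. For Gpc3 the genes were Vldlr (0.47), P4ha2 (0.52), a collagen prolyl hydroxylase subunit, and Fkbp7 (0.58). Fat4, Prkg1 and Parm1 were nearest to Gpc6 at 0.74 to 0.84.

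The other members had other neighbours. The genes near Sdc3 included Gmip (0.28) and Tnfrsf11a (0.30), the receptor RANK of the myeloid lineage. Sdc1 was nearest to Tes, Pde1b and Baiap2 (0.42 to 0.43), Sdc4 to Traf3ip2, Gramd3 and Hdac7 (0.27 to 0.35) and Gpc1 to Tspan3, Dusp4 and Peak1 (0.45 to 0.51). Among the members themselves, Gpc4 and Sdc2 were the closest pair, at 0.49, and 0.0954% of all genes lay nearer to Sdc2 than Gpc4 did. Gpc3 was 1.13 from Gpc4, its neighbour on the chromosome.

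Other genes of the heparan sulfate pathway were described by list, with no gene of any list past the adjusted threshold by edgeR. A gene can pass the filter through the group where it is high. For that reason no list median or number of list genes in 1 direction, here or below, is read as a result. Of 7 other heparan sulfate proteoglycans 5 passed the filter, and their median log2 fold change in Ephb4 CKO versus control mice after bleomycin was -1.18, against 0.01 over all genes. Col18a1, the collagen that releases endostatin, was at 4.99 to 9.66 CPM in the Ephb4 CKO and 15.0 to 80.5 CPM in the control mice (-2.40 ± 0.91, SE, edgeR adjusted p = 0.218). Hspg2 was at 38.7 to 60.7 CPM after bleomycin and 0.701 to 29.6 CPM after PBS in Ephb4 control mice (1.91 ± 1.13, edgeR adjusted p = 0.432).

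Of 12 genes for enzymes that build the chains 11 were tested, with a median of -0.14 in the same comparison. Ext1 and Ext2, the 2 subunits of the polymerase that extends the chain, were lower in every bleomycin-treated Ephb4 CKO mouse than in any control. Ext1 had -0.91 ± 0.24 (SE; unadjusted p = 0.00196, edgeR adjusted p = 0.195) and Ext2 -0.50 ± 0.14 (0.00270 and 0.196). In Ephb4 control mice Ext2 was at 46.9 to 56.1 CPM after bleomycin and 30.0 to 38.8 CPM after PBS (0.63 ± 0.14, unadjusted p = 0.000364, edgeR adjusted p = 0.268), and Extl2 was also higher without overlap (0.49 ± 0.28, edgeR adjusted p = 0.416).

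Of 19 genes that modify or sulfate the chains, 10 were tested. In bleomycin-treated Ephb4 CKO versus control mice 9 of them were below 0, with a median of -0.45, against 0.01 over all genes. Of the 10 genes, 2 were below 0 with an unadjusted p under 0.05 by edgeR, where 20.2% of all genes had one in either direction. Glce, which turns glucuronic into iduronic acid, was at 19.98 to 42.1 CPM in these mice and 59.3 to 64.6 CPM in the controls (-0.94 ± 0.38, SE, edgeR adjusted p = 0.220). Hs2st1, a 2-O-sulfotransferase, and Papss2, which makes the sulfate donor, were also lower without overlap (-0.49 and -0.63).

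Enzymes that release or trim the proteoglycans differed in both directions, 4 of the 8 tested above and 4 below 0. Adam17, a sheddase of syndecans, was at 159 to 362 CPM in bleomycin-treated Ephb4 CKO and 52.9 to 119 CPM in control mice (1.19 ± 0.43, SE, edgeR adjusted p = 0.215). Sulf1, which removes 6-O-sulfate from the chains, was at 0.376 to 56.2 CPM and 99.2 to 230.3 CPM (-3.17 ± 1.74, edgeR adjusted p = 0.292). Mmp14, another sheddase, was higher after bleomycin in Ephb4 control mice without overlap (0.82 ± 0.41, edgeR adjusted p = 0.373).

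All 8 genes of the syndecan tail partners passed the filter, and their median was -0.13. Sdcbp (syntenin, a PDZ protein that binds the tails) was at 734 to 1354 CPM in bleomycin-treated Ephb4 CKO mice and 204 to 654 CPM in controls (1.08 ± 0.37, SE, edgeR adjusted p = 0.210). Cask and Actn1, which link the tails to the cytoskeleton, were lower without overlap (-0.44 and -0.81, edgeR adjusted p of 0.278 and 0.279).

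Among 24 ligands and co-receptors that bind heparan sulfate, 20 were tested, and nothing is read from the number in 1 direction, as for the other lists. Their median was -0.96 for Ephb4 CKO versus control after bleomycin, with 17 below 0, and 1.01 between the bleomycin and PBS groups of Ephb4 control mice, with 18 above 0, against medians over all genes of 0.01 and -0.06. Wnt5a had -3.38 ± 1.15 (SE, edgeR adjusted p = 0.210), Mdk -2.72 ± 1.12 (0.223) and Fgfr1 -1.99 ± 0.98 (0.256), all lower in Ephb4 CKO mice without overlap. Met, the receptor of hepatocyte growth factor, was at 156 to 546 CPM in these mice and 24.4 to 84.6 CPM in the controls (2.66 ± 0.85, edgeR adjusted p = 0.207). Itgb5 (1.10 ± 0.35, edgeR adjusted p = 0.293) and Fn1, fibronectin (1.45 ± 1.05, 0.514), were higher after bleomycin in Ephb4 control mice without overlap.

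Hedgehog pathway genes were included because glypicans bind hedgehog proteins, and 6 of 12 passed the filter. All 6 were below 0 in bleomycin-treated Ephb4 CKO mice, with a median of -2.16, against 0.01 over all genes. A gene can pass the filter through the group where it is high, so nothing is read from this number or median. The co-receptors Cdon (-1.03 ± 0.42, SE, edgeR adjusted p = 0.223) and Boc (-2.12 ± 1.03, 0.254) and the signal transducer Smo (-2.19 ± 0.94, 0.228) were lower without overlap. Smo was at 2.84 to 21.04 CPM in Ephb4 CKO mice and 35.6 to 79.8 CPM in control mice. The fibroblast markers of these libraries differed in the same direction, for example Col1a1, the chain of type I collagen, at 1.54 to 157 and 652 to 2239 CPM (-4.70 ± 2.01, edgeR adjusted p = 0.228), and their part in these list values was not tested.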

How the data were processed

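The processed data were 1 table of gene counts for 17 libraries (75 bp reads). Per the labels and the study's methods, the authors trimmed reads with Cutadapt, aligned them by strand to GRCm38 with HISAT2 2.1.0 and derived the deposited counts from StringTie coverage; they are whole numbers and were not normalized. No column was left out, no 2 libraries were identical and all 55421 rows named a gene.

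Counts were scaled with TMM and tested with the quasi-likelihood test of edgeR 4.0.16 (R 4.3.3) over the 10481 genes with a CPM above 10 in at least 2 libraries, the filter of the study, with 1 mean per group, all 17 libraries in the fit and Benjamini-Hochberg adjustment over all genes kept (threshold 0.05). The biological coefficient of variation was 0.557. Library totals were 66540022 to 120554468 counts. The study used DESeq2 with a batch term. The labels do not give the batch of each library, so no batch term was fitted, and a batch effect cannot be told apart from the group differences. Each library was 1 mouse, so that p-values measure the spread between mice. Log2 CPM used a prior count of 2. Levels per length used the union of exons of GENCODE M21, to which 55240 gene IDs matched. Fits were tested on simulated counts. Figures were drawn with matplotlib 3.10.9 in Python 3.11.15.

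The text names all 8 members, Ephb4, the 3 genes nearest to each member (1 of them is not reported here) and, from each gene list, at most 3 genes in each direction by smallest p among those whose groups did not overlap. Col1a1 is a marker given as an example after its values were seen. Members and lists were chosen with earlier results of these data known. Alternatives were DESeq2 1.42.0, voom with sample quality weights (limma 3.58.1), RLE size factors, no filter, only the groups compared, the covariates recorded sex, number series (the first digits of the number in the title) and marker scores, library sizes without 4 abundant noncoding genes, leaving out the 3 libraries against the recorded sex, and leaving out each mouse. Markers of other cells were summed too: over the libraries epithelial markers ran from 31.2 to 2627 CPM, endothelial from 34.8 to 346.6, mesothelial from 2.31 to 601.8, smooth muscle and pericyte from 7.96 to 3904, lymphocyte from 0.0804 to 36.8 and neutrophil from 2.25 to 91.96.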

Additional observations from a re-analysis of the deposited data

Results flagged for a closer look

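Single libraries stood far from the rest of their group in 5 of 32 sets of CPM values (8 genes in 4 groups), each as the highest value. The rule for flagging gives about 1 in 20 by chance only for normally distributed values. CPM was not put on a log scale here and the sets share libraries, so nothing is read from the number of flags. Sdc4 was at 272 CPM in bleomycin-treated Ephb4 control mouse 1, against 96.5 to 117 CPM in the other 3 mice. In PBS-treated Ephb4 control mouse 3, Gpc1 was at 76.0 CPM, against 11.1 to 22.02 CPM, and Gpc3 at 11.5 CPM, against 0.1001 to 1.21 CPM. Gpc3 was also far from the rest in PBS-treated Ephb4 CKO mouse 3, at 3.33 CPM against 0.154 to 1.06 CPM in 4 mice. Gpc6 was at 7.49 CPM in bleomycin-treated Ephb4 CKO mouse 2, against 0 to 0.657 CPM in the other 3, and the sex-linked genes of that library went against its record.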

How the results depend on the processing

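Under every alternative run, Sdc2, Gpc3 and Gpc4 were lower in Ephb4 CKO than in control mice after bleomycin (-4.87 to -0.84, -4.11 to -0.84 and -3.58 to -0.63), and Sdc2 and Gpc4 were higher after bleomycin in Ephb4 control mice (0.49 to 3.96 and 0.54 to 2.89). No member was called by edgeR in any of its fits. DESeq2 called 1 member (Gpc3) and voom with sample quality weights 4 members in Ephb4 CKO versus control mice after bleomycin; the cause was not tested. In the 4 other comparisons each alternative that was run called 0 members.

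Directions changed as follows (log2 fold change), and no cause was tested. In Ephb4 control mice, bleomycin versus PBS, Sdc3 was 0.10 with the number series as covariate, 0.48 with the macrophage score and 0.22 with the fibroblast score, with which Sdc4 was -0.42, Gpc1 -0.25 and Gpc3 -0.29. For Ephb4 CKO versus control after bleomycin, the macrophage score gave -0.29 for Sdc3, 0.22 for Sdc4 and 0.31 for Gpc1, the fibroblast score 0.47 for Sdc4 and 1.03 for Gpc1, voom 0.46 for Gpc1, and leaving out the libraries against the recorded sex -0.31 for Sdc1. For Ephb4 CKO versus control after PBS, Sdc2 was 0.33 and Gpc4 0.52 with the fibroblast score, Gpc4 was 0.035 with the macrophage score, and Sdc4 was -0.36 by voom. For bleomycin versus PBS in Ephb4 CKO mice, Sdc2 was -0.68 and Gpc4 -0.61 with the fibroblast score and -1.001 and -0.77 without the libraries against the recorded sex, and voom gave 0.070 for Sdc3, 0.20 for Sdc4, 0.61 for Gpc1 and 0.49 for Gpc3. The interaction of Sdc1 was 0.82 by voom, 0.035 with the macrophage and 0.18 with the fibroblast score, and that of Sdc3 was 0.084 by voom, 0.15 without the libraries against the recorded sex and 0.062 with the sorted run of table columns as covariate, which was chosen after seeing the data.

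With 1 mouse left out, these values crossed 0. In Ephb4 control mice Sdc1 ran from -0.85 to 0.19 and Sdc3 from -0.54 to 0.11. For Ephb4 CKO versus control, Sdc1 ran from -0.17 to 0.76 after bleomycin, and after PBS Sdc2 ran from -1.90 to 0.21, Sdc4 from -0.12 to 0.87, Gpc3 from -2.77 to 0.70 and Gpc4 from -1.28 to 0.14. In Ephb4 CKO mice Sdc2 ran from -0.22 to 1.66, Sdc3 from -0.62 to 0.15, Sdc4 from -0.47 to 0.13, Gpc1 from -0.85 to 0.081, Gpc3 from -0.86 to 0.65 and Gpc4 from -0.18 to 1.41. The interaction ran from -0.96 to 0.085 for Sdc1 and from -0.52 to 0.42 for Sdc3. Gpc6 did not pass the filter and had no fit with each mouse left out.

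No paired analysis was possible because no 2 groups that were compared share a number: the titles are mouse numbers, and the 2 numbers that occur in 2 groups, each once for a female and once for a male mouse, join groups that no comparison set against each other. Depth limits the low values of Gpc6 (0 to 799 counts per library in bleomycin-treated Ephb4 CKO mice) and Gpc3 (11 to 114 counts in the same mice). The spread between mice and the differing cell make-up of the libraries limit all comparisons.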
